A study of Ovis aries with 9 samples.

Results

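The PLIN2-rich and PLIN2-poor hepatocytes described here are the 123 cells of highest and the 123 of lowest PLIN2 level among the 492 liver cells of the term sample. They were ranked by PLIN2 CPM, the reads of a gene scaled to a total of 1000000 reads on named genes in each cell. Cells with equal values were ordered by their column in the count table. The whole series held 3404 cells. Both groups came from 1 sample, female sheep at days 140 to 150 of gestation, and the 246 cells between them in rank served, as 2 middle groups, to show whether a level ran in order with the rank. The series has 8 other samples, 1 per stage, all from livers of female sheep: virgin, days 40 to 50, 50 to 70, 70 to 80, 90 to 100 and 100 to 120 of gestation, and days 7 and 15 after birth with lactation. Each cell was picked by hand under a microscope and given its own Smart-seq3xpress library, a plate-based method that covers transcripts along their length. The labels name no animal and no plate for any cell. With 1 term sample the cells are not replicates of a condition, so no p-value is given for the term groups, and intervals on them cover counting error only.

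PLIN2 encodes perilipin 2, the main coat protein of lipid droplets in hepatocytes. Droplets store triglyceride and cholesterol esters, and the coat limits access of the lipases that release fatty acids. Those fatty acids are burned in mitochondria and peroxisomes, exported in lipoproteins or act as ligands of PPARA, the nuclear receptor that drives many genes of fatty acid use, PLIN2 among them.

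PLIN2 stood at 226 CPM in the PLIN2-rich group (exact Poisson 95% interval 222 to 230) and at 8.41 CPM in the PLIN2-poor group (7.63 to 9.24). The ratio was 26.9-fold, or 4.75 on the log2 scale (4.61 to 4.89 for counting error). It is the value that chose the cells and is given as a description. Single cells ran from 155 CPM over a median of 212 to 663 CPM in the PLIN2-rich group and from 0 over 6.84 to 22.7 CPM in the PLIN2-poor group. In the PLIN2-poor group 47 cells had no PLIN2 read, and every term cell without one lay there. The 2 middle groups stood at 116 and 48.8 CPM. The lowest PLIN2-rich cell had 155.022 CPM and the cell just outside 154.9 CPM, while the highest PLIN2-poor cell had 22.7 CPM and the cell just outside 23.98 CPM.

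Reads per cell were close in the groups. The median was 392123 in PLIN2-rich and 360461 in PLIN2-poor cells, and over all 492 cells the Spearman correlation of PLIN2 CPM with reads was 0.03. Genes detected were not as close. With each cell thinned to 143154 reads, which left out 10 PLIN2-rich and 18 PLIN2-poor cells, the median was 6146 genes in PLIN2-rich and 5080 in PLIN2-poor cells. Without thinning the medians were 6774 genes in PLIN2-rich and 5645 genes in PLIN2-poor cells. The part of this gap in the results that follow was not tested, beyond the thinned values given with the alternatives.

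Hepatocyte markers, such as ALB and TTR, summed to 156579 CPM in the PLIN2-rich and 162308 CPM in the PLIN2-poor group. Of the 12 listed the table holds 11, and all 11 had reads. Each list of markers of other cells summed to 23.1 CPM or less in both groups. Stellate cell and fibroblast markers summed to 23.1 CPM in PLIN2-rich and 17.6 CPM in PLIN2-poor cells, with 8 of 11 higher in the PLIN2-rich group and 0 of 11 at 0 in both. Endothelial markers summed to 22.7 CPM in PLIN2-rich and 9.29 CPM in PLIN2-poor cells, with 8 of 9 higher in the PLIN2-rich group and 52.0% of the PLIN2-rich reads in 1 cell. Macrophage markers summed to 14.2 CPM in PLIN2-rich and 17.0 CPM in PLIN2-poor cells, with CD68 at 0 in both. Adipocyte markers, among them the droplet coat gene PLIN1, summed to 16.7 CPM in PLIN2-rich and 14.2 CPM in PLIN2-poor cells, and LEP was at 0 in both. The bile duct, lymphocyte, neutrophil and red cell or platelet lists each stayed under 5 CPM in both groups. The median cell had 0 CPM of endothelial markers in either group.

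PLIN2-rich cells were not spread evenly over the numbers that the column names give the cells. Cut into 12 stretches of 41 numbers, a length chosen, like the grouping that follows, after the data were seen, the term cells fell into 5 stretches with 16 to 23 PLIN2-rich and 0 to 3 PLIN2-poor cells each, and 7 with 1 to 8 PLIN2-rich and 10 to 23 PLIN2-poor cells. The 5 stretches, numbers 124 to 246 and 329 to 410, held 98 PLIN2-rich and 7 PLIN2-poor cells, and the other 7 held 25 PLIN2-rich and 116 PLIN2-poor cells. Median PLIN2 per stretch ran from 123 to 165 CPM in the 5 and from 21.0 to 60.2 CPM in the 7. No source used here gives what the numbers mark, such as an animal, a plate or a day. Cell source and PLIN2 level therefore cannot be told apart in the groups.

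**Figure D1:**
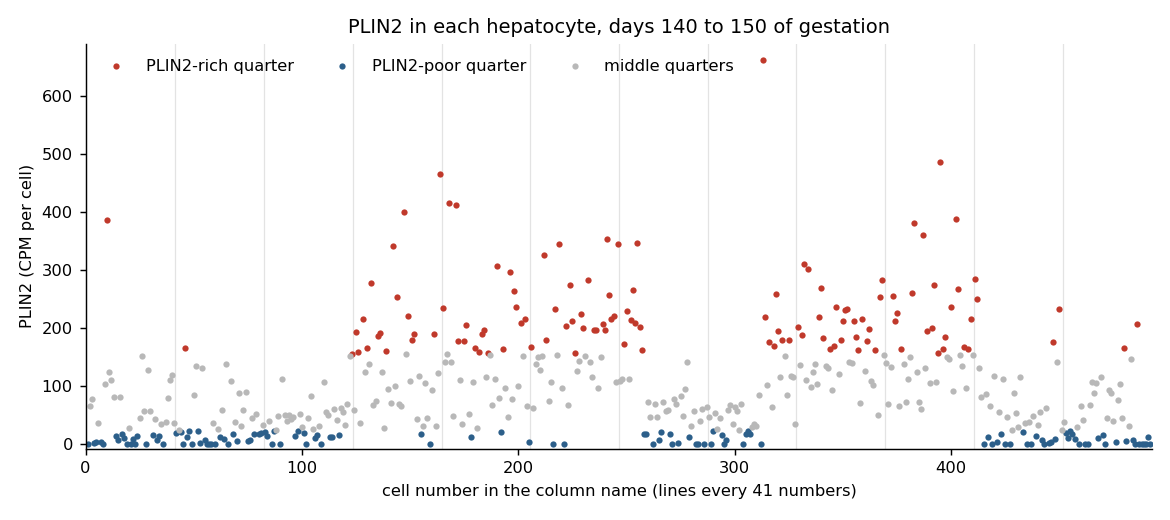
PLIN2 level of each term hepatocyte (vertical axis, CPM per cell) against the number in its column name (horizontal axis). Red points are the 123 PLIN2-rich cells, blue the 123 PLIN2-poor cells and grey the middle groups; most red points lie in numbers 124 to 246 and 329 to 410.

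Other genes ran in the same stretches. G0S2, which encodes an inhibitor of the main triglyceride lipase, had stretch medians of 64.8 to 127 CPM in the 5 PLIN2-rich stretches and 8.16 to 60.6 CPM in the 7 others. CYP3A24, a drug-metabolizing cytochrome, did not follow PLIN2 along the whole series of numbers. Its medians were 1356 to 1831 CPM in the 5 PLIN2-rich stretches, 1736 and 1946 CPM in the last 2 stretches and 38.8 to 155 CPM in the remaining 5. The last cells stood apart most. The last 84 cells, numbered 409 to 492 and set apart after the data were seen, 7 of them PLIN2-rich and 37 PLIN2-poor, had a median of 34893 CPM of ORM1, the acute phase protein orosomucoid, against 10.4 CPM in the 408 cells before them. Their median ALB was 26823 CPM, against 103527 CPM in the earlier cells. The main results below are therefore also given without these 84 cells, or with cells ranked by PLIN2 within stretches of 12 consecutive numbers, both chosen after the data were seen.

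**Figure D2:**
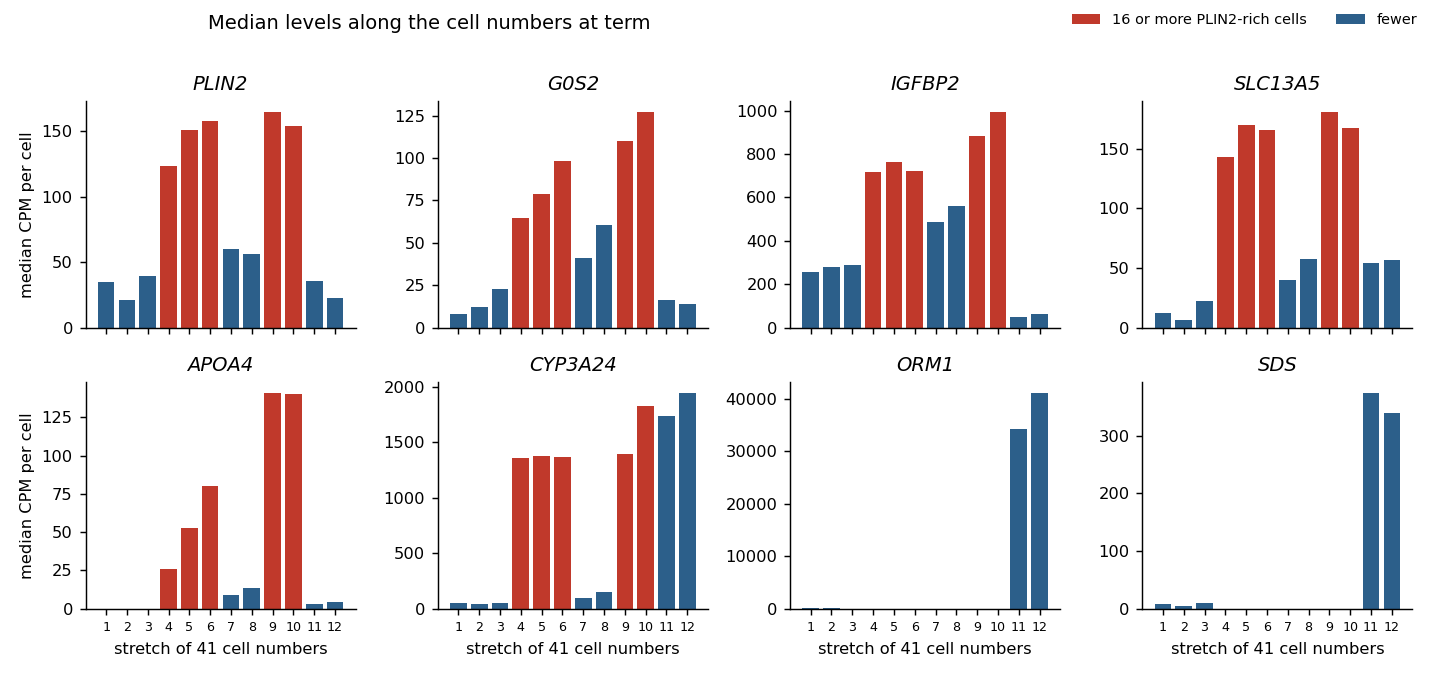
Median CPM per cell (vertical axes, 1 scale per gene) in each of 12 stretches of 41 cell numbers (horizontal axes) for PLIN2 and 7 genes chosen after their values were seen. Red bars are the 5 stretches with 16 or more PLIN2-rich cells; G0S2, IGFBP2, SLC13A5 and APOA4 are high there, CYP3A24 is also high in the last 2 stretches, and ORM1 and SDS are high in the last 2.

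A ratio of at least 1.5-fold was taken as a call, among genes of at least 20 CPM in the higher group and with PLIN2 left out. In the PLIN2-rich group 374 of 4328 genes were higher (8.64%) and 356 were lower (8.23%), so 51.2% of the calls were higher. With TMM scaling the counts were 264 higher and 475 lower, 35.7% higher. Without the last 84 cells the counts were 355 higher (8.05%) and 465 lower (10.5%) of 4409 genes. With cells ranked within stretches of 12 numbers they were 55 higher (1.31%) and 79 lower (1.88%) of 4213 genes. PLIN2 itself still stood at 185 CPM in the PLIN2-rich and 35.6 CPM in the PLIN2-poor cells of that ranking, a ratio of 5.19-fold. Of the 730 genes called in the whole-sample ranking, 58 were called in the same direction within stretches and 547 kept their sign. The thinned medians were then 5487 genes in PLIN2-rich and 5479 genes in PLIN2-poor cells. For gene lists and named genes below, counts past 1.5-fold in the other settings use the ratio alone. For those counts the minimum level was applied in the whole-sample ranking only.

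Lipid droplet genes other than PLIN2 were higher in the PLIN2-rich group in 3 of 11 tested members and lower in 0, with a median log2 ratio of 0.24 against 0.02 over all genes tested. G0S2 stood at 104 CPM in PLIN2-rich and 29.8 CPM in PLIN2-poor cells, a log2 ratio of 1.80 (1.72 to 1.89). Single cells ran from 0 over 105 to 349 CPM in the PLIN2-rich and from 0 over 24.01 to 324 CPM in the PLIN2-poor group, so the groups overlapped. HILPDA, a droplet protein that inhibits the same lipase, stood at 21.5 CPM in PLIN2-rich and 5.77 CPM in PLIN2-poor cells (log2 ratio 1.90, 1.71 to 2.09). ABHD5, the coactivator of that lipase, stood at 71.6 CPM in PLIN2-rich and 27.8 CPM in PLIN2-poor cells (1.36, 1.28 to 1.45). Within stretches the 3 log2 ratios were 0.06 for G0S2, 0.15 for HILPDA and 0.32 for ABHD5, none past 1.5-fold, and without the last 84 cells all 3 stayed past it, at 1.91, 1.40 and 1.24.

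Among PPARA targets 7 of 16 tested members were higher in PLIN2-rich cells and 1 was lower, with a median log2 ratio of 0.45. FGF21, a hormone that the fasting liver secretes, stood at 35.6 CPM in PLIN2-rich and 10.4 CPM in PLIN2-poor cells (log2 ratio 1.77, 1.63 to 1.91). VNN1, a pantetheinase, stood at 306 CPM in PLIN2-rich and 166 CPM in PLIN2-poor cells (0.88). PDK4, the kinase that blocks pyruvate entry into the citric acid cycle, stood at 554 CPM in PLIN2-rich and 321 CPM in PLIN2-poor cells (0.79). The 1 lower member was UCP2, a mitochondrial carrier, at 36.1 CPM in PLIN2-rich and 69.0 CPM in PLIN2-poor cells (-0.93). Ranked within stretches, 0 of the 16 members were past 1.5-fold in either direction and the median was 0.01.

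In mitochondrial fatty acid oxidation 4 of 23 members were higher in PLIN2-rich cells and 0 lower, with a median log2 ratio of 0.17. The 4 were ECI2, an enoyl-CoA isomerase (0.69), CPT2 (0.67) and CPT1A (0.59), the inner and outer carnitine palmitoyltransferases, and SLC25A20 (0.64), the carrier between them. In peroxisomal oxidation 2 of 14 were higher and 0 lower. PHYH, which starts the breakdown of phytanic acid, stood at 5146 CPM in PLIN2-rich and 2920 CPM in PLIN2-poor cells (0.82). Ketone body synthesis had 0 of 5 members past 1.5-fold. Within stretches 0 members of these 3 lists were past 1.5-fold.

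Cholesterol synthesis and uptake held the most higher members, 10 of 16 tested, with 1 lower and a median log2 ratio of 0.66. INSIG1, which retains the sterol sensor in the endoplasmic reticulum, stood at 91.0 CPM in PLIN2-rich and 37.4 CPM in PLIN2-poor cells (1.28, 1.21 to 1.36). SREBF2, the transcription factor of the pathway, stood at 41.5 CPM in PLIN2-rich and 19.9 CPM in PLIN2-poor cells (1.06, 0.95 to 1.17). Without the last 84 cells the list had 8 members higher and 0 lower. Within stretches 0 members were past 1.5-fold and the median was 0.07.

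Of the 15 genes that the naming rule gave by size on the higher side LIPG had the largest ratio. LIPG is the endothelial lipase that acts on phospholipids of high-density lipoprotein. It stood at 32.8 CPM in PLIN2-rich and 3.66 CPM in PLIN2-poor cells, a ratio of 8.97-fold (log2 3.16, 2.95 to 3.39). Its median cell had 25.8 CPM in the PLIN2-rich and 0 CPM in the PLIN2-poor group. SLC2A5, the fructose transporter GLUT5, stood at 21.7 CPM in PLIN2-rich and 3.19 CPM in PLIN2-poor cells (log2 ratio 2.77, 2.53 to 3.01). APOA4, an apolipoprotein of triglyceride-rich particles, stood at 143 CPM in PLIN2-rich and 24.6 CPM in PLIN2-poor cells (2.54, 2.45 to 2.63). The groups overlapped for APOA4, with single cells from 0 over 99.8 to 934 CPM in the PLIN2-rich and from 0 over 0 to 572 CPM in the PLIN2-poor group. Within stretches the log2 ratios were -0.30 for LIPG, 0.08 for SLC2A5 and -0.10 for APOA4.

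Other named genes on the higher side spanned secretion, transport and metabolism. IGFBP2, which binds insulin-like growth factors, stood at 777 CPM in PLIN2-rich and 236 CPM in PLIN2-poor cells (1.72, 1.69 to 1.75), with cells from 24.98 over 813 to 1949 CPM in the PLIN2-rich and from 0 over 226 to 1406 CPM in the PLIN2-poor group. SLC13A5, the citrate transporter of the hepatocyte membrane, stood at 166 CPM in PLIN2-rich and 49.5 CPM in PLIN2-poor cells (1.75, 1.68 to 1.81). SLC25A47, a mitochondrial carrier of the liver, stood at 229 CPM in PLIN2-rich and 79.3 CPM in PLIN2-poor cells (1.53). AFMID, of tryptophan breakdown, stood at 63.4 CPM in PLIN2-rich and 19.1 CPM in PLIN2-poor cells (1.73). OCIAD2, STK19 and the lectin CLEC2D had log2 ratios of 2.25, 1.60 and 1.52. Of the 15 genes given by size on this side 1, ISG15, was past 1.5-fold within stretches, 12 kept their sign there, and all 15 were past 1.5-fold without the last 84 cells.

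In the whole-sample ranking 5 of 7 tested interferon response genes were higher in PLIN2-rich cells and 1 was lower, with a median log2 ratio of 0.75. Within stretches 2 were higher and 0 lower, with a median of 0.53. With the last 84 cells also left out that median was 0.32. ISG15, a ubiquitin-like protein that interferon induces, stood at 195 CPM in PLIN2-rich and 57.4 CPM in PLIN2-poor cells (1.76, 1.71 to 1.82), and at 185 and 97.9 CPM in the PLIN2-rich and PLIN2-poor cells ranked within stretches (0.91). Single cells ran up to 1649 CPM in the PLIN2-rich and 1390 CPM in the PLIN2-poor group. In the 12 longer stretches ISG15 was higher in PLIN2-rich cells in 7, near the median of 6 over all genes tested. IFIT1, which binds viral RNA, stood at 20.1 CPM in PLIN2-rich and 2.09 CPM in PLIN2-poor cells (3.26), with 17.2% of its PLIN2-rich reads in 1 cell. Within stretches IFIT1 stood at 14.0 CPM in PLIN2-rich and 9.73 CPM in PLIN2-poor cells, under the minimum level for a call. Its log2 ratio there, 0.53, is the list median. MX1, an antiviral GTPase, stood at 58.3 CPM in PLIN2-rich and 23.6 CPM in PLIN2-poor cells (1.30). HERC6, a HERC family ubiquitin ligase outside the list, stood at 24.7 CPM in PLIN2-rich and 8.52 CPM in PLIN2-poor cells (1.53). IFI6 was the lower member, at 821 CPM in PLIN2-rich and 1621 CPM in PLIN2-poor cells (-0.98), and had a log2 ratio of 1.94 without the last 84 cells.

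**Figure D3:**
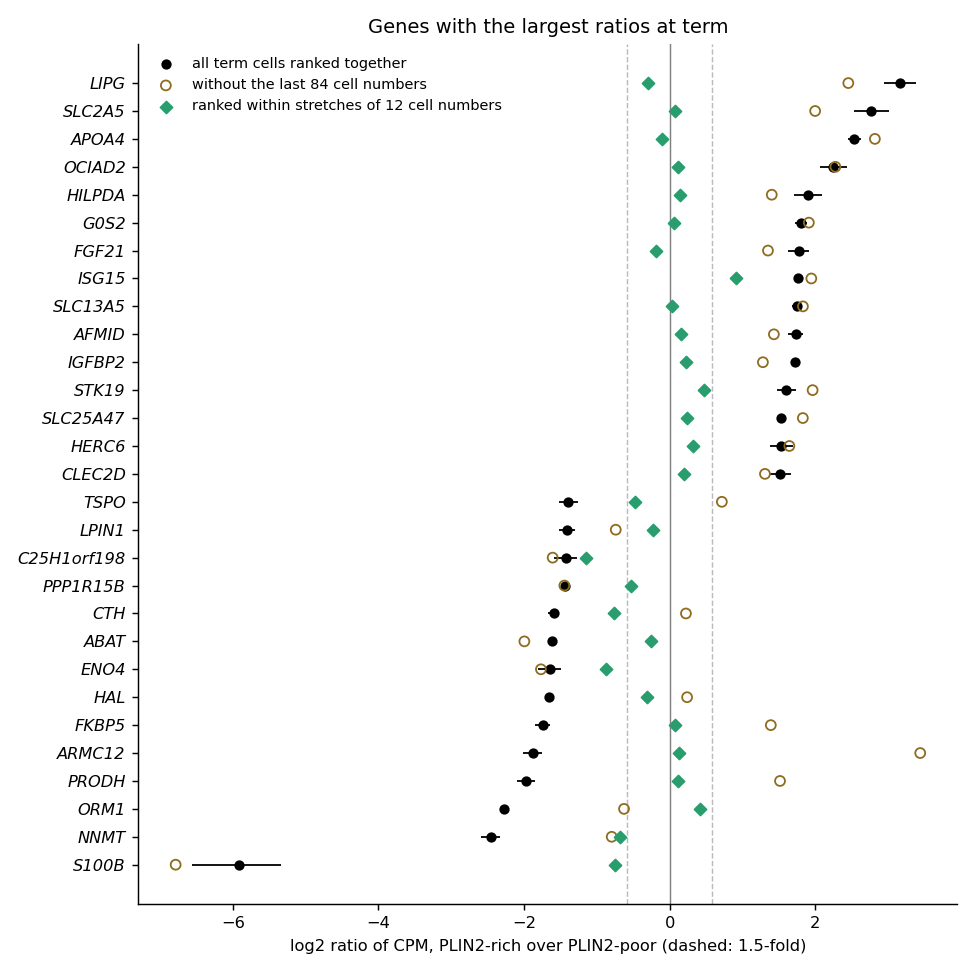
Log2 ratio of CPM, PLIN2-rich over PLIN2-poor (horizontal axis), of 29 of the 30 genes that the naming rule gave by size (rows). Black points with 95% counting intervals rank all term cells together, open circles leave out the last 84 cells, and green diamonds rank cells within stretches of 12 numbers. Most diamonds lie between the dashed lines of 1.5-fold, and 6 genes of the lower side, PRODH and ARMC12 among them, lie on the other side of 0 without the last 84 cells. PRODH and ARMC12 were then under the minimum level for a call.

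On the lower side S100B, a calcium-binding protein, had the most extreme ratio of the 15 genes given by size. It stood at 0.455 CPM in PLIN2-rich cells (24 reads, 0.292 to 0.678 CPM) and at 27.4 CPM in PLIN2-poor cells (1404 reads), a log2 ratio of -5.91 (-6.56 to -5.33). Its stretch medians were 0 CPM in all 5 PLIN2-rich stretches and in the last stretch, and 6.47 to 28.5 CPM in the 6 others. Ranked within stretches S100B stood at 9.63 CPM in PLIN2-rich and 16.3 CPM in PLIN2-poor cells (-0.76). NNMT, which methylates nicotinamide, stood at 10.2 CPM in PLIN2-rich and 56.1 CPM in PLIN2-poor cells (-2.46, -2.59 to -2.32), and at -0.67 within stretches. ABAT, the transaminase of gamma-aminobutyrate, stood at 50.6 CPM in PLIN2-rich and 155 CPM in PLIN2-poor cells (-1.61), and LPIN1, a phosphatidate phosphatase of triglyceride synthesis, at 15.9 and 42.1 CPM in PLIN2-rich and PLIN2-poor cells (-1.41).

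Several genes of the lower side had other values without the last 84 cells. ORM1 stood at 2233 CPM in PLIN2-rich and 10793 CPM in PLIN2-poor cells (-2.27), and at 43.8 and 67.6 CPM in PLIN2-rich and PLIN2-poor cells without the last 84 cells (-0.63). PRODH, the first enzyme of proline breakdown, had -1.97 in the whole-sample ranking and 1.52 without those cells. FKBP5, a co-chaperone that glucocorticoids induce, had -1.74 and then 1.39, and its genomic neighbour ARMC12 had -1.88 and then 3.44. HAL, of histidine breakdown, had -1.65 and then 0.24, CTH, of cysteine synthesis, had -1.59 and then 0.22, and TSPO, of the outer mitochondrial membrane, had -1.39 and then 0.72. Some of these genes had low levels without the last 84 cells. PRODH then stood at 5.50 CPM in PLIN2-rich and 1.92 CPM in PLIN2-poor cells, and FKBP5 at 13.5 and 5.17 CPM. In the same order ARMC12 stood at 4.89 and 0.449 CPM and TSPO at 10.4 and 6.31 CPM. All these levels lay under the minimum level for a call, so these ratios are not calls. Of the 15 genes given by size on the lower side 9 kept their sign without the last 84 cells. Within stretches 5 were past 1.5-fold by ratio: C25H1orf198, ENO4, CTH, S100B and NNMT. There C25H1orf198 stood at 8.47 CPM in PLIN2-rich and 18.7 CPM in PLIN2-poor cells, and ENO4 at 9.94 and 18.3 CPM. These levels and those of S100B lay under the minimum level for a call, so only CTH and NNMT of the 5 are calls. C25H1orf198 was higher in PLIN2-rich cells in 1 of the 12 longer stretches, ENO4, of the enolase family, in 3, and PPP1R15B, a subunit of the phosphatase that reverses the integrated stress response, in 2. These 3 were singled out after their values were seen. Of all 4328 genes tested, 10 (0.231%) were higher in 0 or 1 of the 12, and the median gene was higher in 6. The share at 2 or 3 of the 12 is not given here, so the counts of ENO4 and PPP1R15B are a description only.

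In the list of the urea cycle and ammonia handling 0 of 11 members had a ratio above 0. Of these members 3 were past 1.5-fold lower, and the median log2 ratio was -0.32. GLS2, the liver glutaminase, stood at 66.3 CPM in PLIN2-rich and 166 CPM in PLIN2-poor cells (-1.33). ASL, which releases arginine, stood at 147 CPM in PLIN2-rich and 253 CPM in PLIN2-poor cells (-0.79). CPS1, which commits ammonia to the cycle, stood at 1680 CPM in PLIN2-rich and 2598 CPM in PLIN2-poor cells (-0.63). In amino acid breakdown 1 of 28 members was higher and 9 were lower, with a median of -0.24. SDS, serine dehydratase, stood at 23.0 CPM in PLIN2-rich and 217 CPM in PLIN2-poor cells (-3.23), and GNMT, glycine N-methyltransferase, at 22.8 CPM in PLIN2-rich and 89.4 CPM in PLIN2-poor cells (-1.97). Periportal genes, those of the lobule's inflow side, had 0 of 15 higher and 7 lower (median -0.30), while pericentral genes had 1 higher and 1 lower of 11 (median 0.26, and -0.075 without the last 84 cells). Without the last 84 cells amino acid breakdown had 1 higher and 3 lower members by ratio alone (median -0.077). The 1 higher member was PRODH, under the minimum level for a call. Periportal genes then had 0 higher and 2 lower by ratio alone (median -0.25). In the urea cycle and ammonia list 3 of 11 members then had a ratio above 0, with 1 past 1.5-fold higher and 2 lower (median -0.25). ASL at -0.16, CPS1 at -0.40 and GNMT at -0.21 were then not past 1.5-fold, while GLS2 at -0.80 and SDS at -1.84 were. Without the last 84 cells SDS stood at 5.16 CPM in PLIN2-rich and 18.4 CPM in PLIN2-poor cells. This was under the minimum level for a call, as was GNMT at 14.1 CPM in PLIN2-rich and 16.3 CPM in PLIN2-poor cells. The lower pericentral gene was SLC1A2, a glutamate transporter, at 8.69 CPM in PLIN2-rich and 95.5 CPM in PLIN2-poor cells (-3.46), and at 63.1 CPM in PLIN2-rich and 65.1 CPM in PLIN2-poor cells ranked within stretches. The lists share members: SDS is in amino acid breakdown, gluconeogenesis and the periportal list. Within stretches SDS was past 1.5-fold, at -0.84, and GLS2, ASL, CPS1 and GNMT were not. The medians there were -0.15 for the urea cycle and ammonia list, -0.07 for amino acid breakdown, -0.09 for periportal genes and 0.02 for pericentral genes.

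Acute phase proteins had 0 of 13 members higher and 4 lower (median -0.34), a list that carries ORM1. HPX, which binds heme, stood at 198 CPM in PLIN2-rich and 489 CPM in PLIN2-poor cells (-1.30), and HAMP, the iron hormone hepcidin, at 456 CPM in PLIN2-rich and 1007 CPM in PLIN2-poor cells (-1.14). Within stretches 0 of the 13 members were past 1.5-fold (median -0.029), with HPX at -0.18 and HAMP at 0.38. Glucocorticoid targets had 2 of 16 higher and 6 lower, with a median of 0.05 that was below 0 under TMM scaling. SGK1, a kinase that glucocorticoids induce, stood at 11.8 CPM in PLIN2-rich and 30.7 CPM in PLIN2-poor cells (-1.38). GCLC, of glutathione synthesis, stood at 37.4 CPM in PLIN2-rich and 115 CPM in PLIN2-poor cells (-1.63) and was the 1 of 10 NRF2 antioxidant genes past 1.5-fold. In gluconeogenesis 2 of 15 were higher and 2 lower. PC, pyruvate carboxylase, stood at 407 CPM in PLIN2-rich and 160 CPM in PLIN2-poor cells (1.35), while GOT1, a cytosolic aminotransferase, stood at 139 CPM in PLIN2-rich and 336 CPM in PLIN2-poor cells (-1.27). Without the last 84 cells GOT1 was at -0.22. Within stretches the log2 ratios were 0.026 for SGK1, -0.23 for GCLC, 0.14 for PC and -0.26 for GOT1, none past 1.5-fold.

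Several lists gave few or no members past 1.5-fold in either direction. Cytosolic ribosomal proteins had 0 of 29 and the respiratory chain 0 of 18. Fatty acid synthesis had 1 of 6 higher, FADS2, a desaturase (0.64), and triglyceride assembly with lipoprotein secretion had 0 higher and 2 lower of 17, LPIN1 and GPAT3, an acyltransferase (-0.89). Plasma proteins had 1 of 18 lower, HPX. Over all 31 lists 28 had a member past 1.5-fold in the whole-sample ranking, and 6 had one within stretches.

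**Figure D4:**
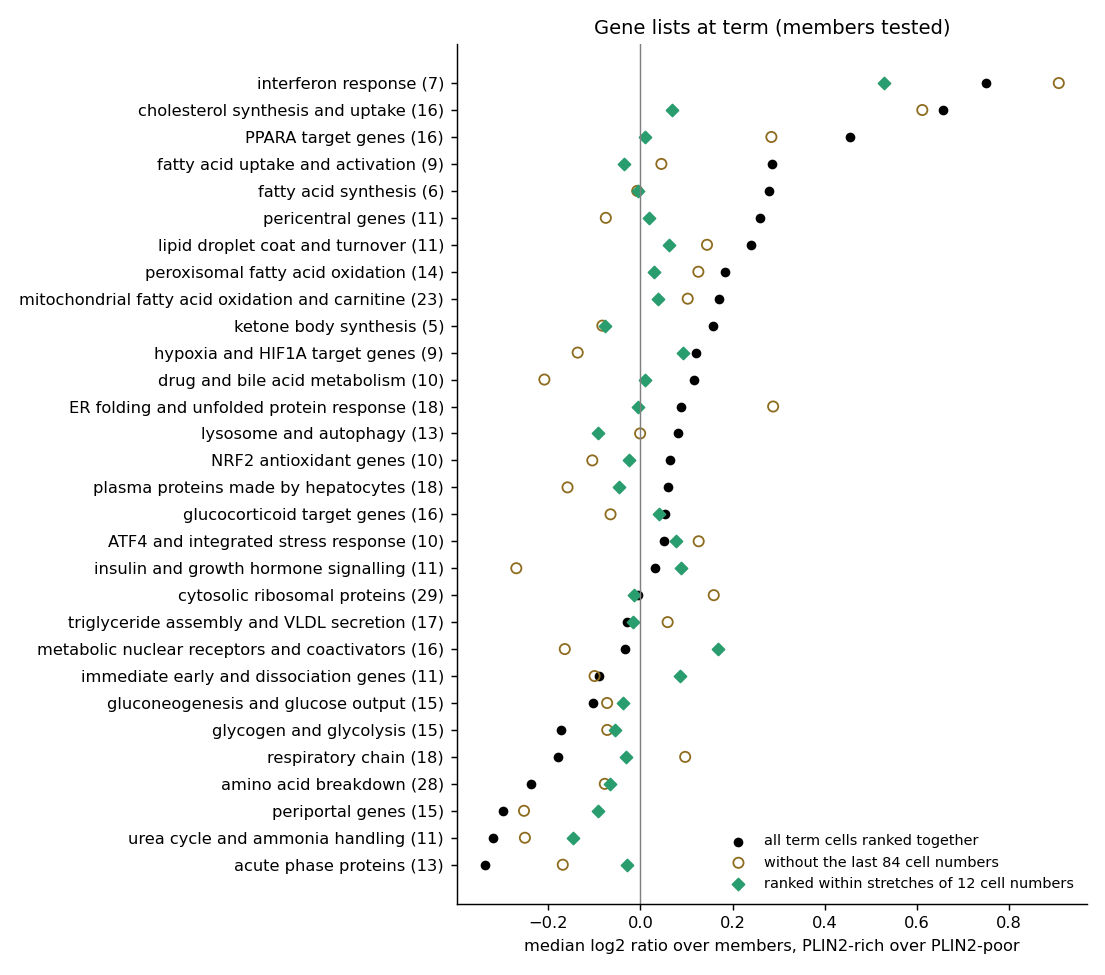
Median log2 ratio over the tested members of each list of at least 5 members (horizontal axis, PLIN2-rich over PLIN2-poor; rows are lists with the members tested). Black points rank all term cells together, open circles leave out the last 84 cells and green diamonds rank within stretches of 12 numbers. The diamond of the interferon list lies at 0.53 and those of the other lists between -0.15 and 0.17. With the last 84 cells also left out, which is not drawn, the interferon median was 0.32.

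The genes most like PLIN2 over cells were taken from 4059 genes in 442 term cells thinned to 1 depth. The 8 highest Spearman correlations ran from 0.51 to 0.59, and 5 of the 8 genes carry LOC symbols only. The 3 others were IGFBP2 (0.58), PC (0.51) and SLC13A5 (0.51). All these cells come from the 1 term sample, and many lie in the same stretches of numbers. Stretches of 12 numbers held 40.4% of the variance of PLIN2 on the log2(CPM + 1) scale, against a median of 16.3% over the other genes and 72.9% for IGFBP2. After each gene was centred on its stretch means the highest correlation of any gene was 0.20, and IGFBP2 had 0.12. Genes at 0.3 or more numbered 78 before and 0 after centring.

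The same split was made within each of the 8 other stages, which the choice of term cells did not use. PLIN2 in the PLIN2-rich groups lay between 13.4 CPM, the value of days 40 to 50, and 179 CPM, that of days 100 to 120. In 7 of the 8 stages every PLIN2-poor cell had 0 PLIN2 reads, so the order of columns decided which cells without a read entered that group, and the virgin and days 40 to 50 PLIN2-rich groups held 14 and 5 cells without a read. Cell numbers differed with the split there, but the order of columns had a part in which numbers were PLIN2-poor. The median number was 255 in PLIN2-rich and 59 in PLIN2-poor cells at days 90 to 100, and 62 in PLIN2-rich and 139 in PLIN2-poor cells at day 7 of lactation. Because of that order, these medians cannot show whether PLIN2 went with the numbers there. With the stage as a block and 1 pair of summed libraries per stage, 0 of 13849 genes were called higher (0%) and 0 lower (0%) in PLIN2-rich cells (edgeR quasi-likelihood test, adjusted p under 0.05). The smallest adjusted p was 0.663 in edgeR and 670 genes had an unadjusted p under 0.05. Ranked within stretches of 12 numbers the test also called 0 and 0 of 13871 genes, with 502 at an unadjusted p under 0.05. DESeq2 called 1 higher (0.00722%) and 20 lower (0.144%), and limma called 0 and 0. The 20 lower genes, outside the naming rule, include CITED2, a transcriptional coregulator (log2 fold change -1.34), NR5A2, a nuclear receptor of bile acid synthesis (-0.80), and ZFP36, which destabilizes messenger RNAs (-1.18), chosen after their values were seen.

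Of the 15 genes given as higher at term, 8 had a positive log2 fold change in the other stages, and of the 15 given as lower, 8 had a negative one. Adjusted p-values of the 30 ran from 0.926 to 0.997 in edgeR. An unadjusted p under 0.05 was found for 7 of the 30, and all 7 pointed as at term: G0S2, FGF21, SLC2A5, SLC25A47, NNMT, ABAT and CTH. G0S2 ran from 8.07 over a median of 44.9 to 110 CPM in the 8 PLIN2-rich groups and from 5.46 over 18.1 to 51.8 CPM in the 8 PLIN2-poor groups, and was higher in PLIN2-rich cells in 7 of 8 stages (log2 fold change 0.95, SE 0.30, adjusted p = 0.961, edgeR). FGF21 was higher in 6 of 8 stages (1.36, SE 0.48, adjusted p = 0.961, edgeR). ABAT was lower in PLIN2-rich cells in all 8, with 20.9 to 197 CPM in PLIN2-rich and 29.3 to 461 CPM in PLIN2-poor groups (-0.52, SE 0.14, adjusted p = 0.926, edgeR). CREB3L3, a liver transcription factor that induces FGF21 in mice, was higher in PLIN2-rich cells in 8 of 8 stages and, ranked within stretches, in 6 of 8, and was singled out after its values were seen. At term its log2 ratio was 0.63, and 0.12 within stretches. The share of all genes that were higher, or lower, in all 8 stages is not given here, and a link of CREB3L3 with FGF21 was not tested. Ranked within stretches, 0 of the 30 genes had an unadjusted p under 0.05, and their log2 fold changes lay between -0.47 and 0.56. IGFBP2, the named gene most like PLIN2 at term, was higher in PLIN2-rich cells in 1 of the 8 other stages.

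**Figure D5:**
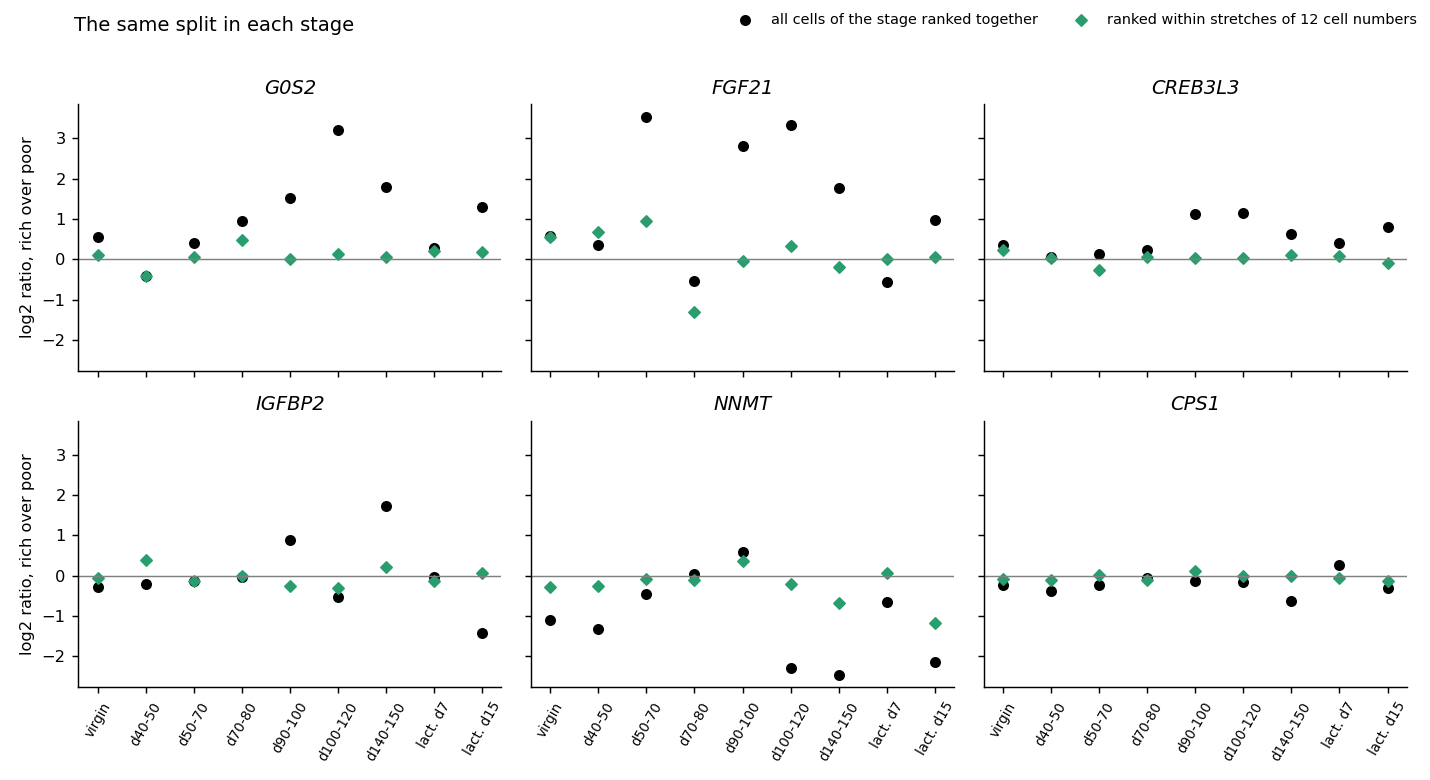
Log2 ratio of PLIN2-rich over PLIN2-poor cells (vertical axes) in each of 9 stages (horizontal axes) for 6 genes chosen after their values were seen. Black points rank all cells of a stage together and green diamonds rank within stretches of 12 cell numbers; G0S2 is above 0 in 8 of the 9 stages and IGFBP2 in 2.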

How the data were processed

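The authors deposited whole-number read counts, a row per gene and a column per cell, without normalization. HISAT2 2.1.0, featureCounts 2.0.1 and Trimmomatic 0.39 made them, per the submitters' processing notes. No source used here gives the genome build, the strand setting or any collapsing of molecular identifiers. The table held 28861 rows. The 24 without a gene name carried 0.229% of term reads and stayed out of totals. A second, normalized table was left out, since 0 of its values were other than NA. Names and neighbours, and nothing else, came from RefSeq's gene table, which names its assembly as ARS-UI_Ramb_v3.0.

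Term cells had 47194 to 1406621 reads, and 204863071 in all. No cell was left out, and doublets were not called, since cells were picked singly. Counts were summed per group and set as CPM of named-gene reads. Ratios carry exact 95% intervals for counting error, and a count of 0 was set to 3. Within stretches the lowest and highest 3 of 12 cells were taken.

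The other stages were tested with edgeR 4.0.16 in R 4.3.3 (filterByExpr, TMM, glmQLFit and glmQLFTest, Benjamini-Hochberg, threshold 0.05), with PLIN2 left out and stage as the block, since both groups come from 1 sample. P-values there measure only how the PLIN2-rich over PLIN2-poor difference varied from stage to stage, and the labels do not tell animals apart. Alternatives used DESeq2 1.42.0 and limma 3.58.1 on log2(mean cell CPM + 1). On simulated counts over 13430 genes of that comparison, 70.1%, 100% and 100% of genes changed by a log2 of 1, 2 and 3 were called, and 0.068% of unchanged ones. The changed genes were drawn from those with a mean above 100 counts. Counts were drawn independently, without the tie between cell numbers and PLIN2 seen in the real cells. The percentages therefore do not give the share of real changes that the test would call.

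Genes are named by rule: symbols other than LOC of at least 20 CPM in the higher group, no cell with over 10% of the reads there, levels in the same order over all 4 groups of the PLIN2 rank, 15 per direction. From each of 31 lists up to 4 members past 1.5-fold are named, or else the 2 of highest level. Some such genes are not reported here, though they enter the counts. The cells, lists and rules were chosen with earlier results of these data known. In the RefSeq table G0S2 overlaps LAMB3, PC overlaps LRFN4, GLS2 overlaps SPRYD4, ENO4 overlaps HSPA12A, SLC13A5 overlaps C11H17orf100, and IFIT1 and CYP3A24 overlap LOC genes, so their single values are uncertain. The other tools were SciPy 1.17.1, matplotlib 3.10.9, pandas 2.3.3 and numpy 2.4.6 in Python 3.11.15.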

Additional observations from a re-analysis of the deposited data

Results flagged for a closer look

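The log2 ratios of the 30 genes given by size and the medians of the 31 lists were scanned over the 8 other stages for a stage far from the rest, and 6 of the 61 had one. Chance gives about 1 in 20 groups, but the values of a stage share cells and the lists share members. The 6 were therefore not tested against that rate. TSPO had a log2 ratio of 5.78 at days 40 to 50, with 16.6 CPM in PLIN2-rich and 0.303 CPM in PLIN2-poor cells, and 0.36 there within stretches of 12 numbers. CTH had 0.38 at day 15 of lactation, the 1 stage of the 8 in which it was higher in PLIN2-rich cells. The interferon response list had a median of -1.75 at days 100 to 120, against 0.75 at term, and 0.04 there within stretches. At days 100 to 120 ISG15 stood at 3.69 CPM in PLIN2-rich and 28.0 CPM in PLIN2-poor cells. Immediate early genes had a median of -0.88 and triglyceride assembly with lipoprotein secretion one of 0.39 in the same stage, and within stretches -0.06 and 0.02. Amino acid breakdown had a median of 0.24 at day 7 of lactation, against -0.24 at term, and -0.04 there within stretches.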

How the results depend on the processing

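Leaving out each of the 8 other stages in turn called 0 higher and 0 lower genes every time, the lowest and highest count being 0 and 0. With no replicate block, the stage term left out, edgeR also called 0 and 0. DESeq2 called 1 higher and 20 lower, and the cause was not tested. Library size only, no filter on low counts, ranking within 5 classes of reads and limma called 0 and 0.

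At term, the counts were 130 higher and 156 lower for groups of 246 cells, 677 and 617 for groups of 49 cells, and 4026 and 2742 with no minimum level. Ranked within stretches of 12 numbers they were 55 and 79, and 90 and 105 when the last 84 cells were also left out, and that last setting shared 67 of the 730 calls. The cause was not tested. Under equal weight per cell, thinning, 5 classes of reads, TMM scaling and without the cells highest in markers of other cells, both counts stayed within 1.5 times. TMM scaling gave the other sign to 6 of the 31 list medians. The PLIN2 log2 ratio was 2.59 for groups of 246 cells and 11.40 (9.54 to 14.4, on 2 reads in the PLIN2-poor cells) for groups of 49. It was 2.38 within stretches, 4.33 without the last 84 cells, 2.20 with both and 4.95 after thinning.

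Log2 ratios had the other sign within stretches for LIPG (-0.30), APOA4 (-0.10), FGF21 (-0.18), ORM1 (0.41), PRODH (0.11), ARMC12 (0.13), FKBP5 (0.080), VNN1 (-0.086), CPT1A (-0.020), PPP1R3C (0.11), GYS2 (-0.13), HAMP (0.38), DDIT4 (0.10), NUPR1 (0.053), PSAT1 (0.11), SGK1 (0.026), CTSL (-0.40), ATG7 (-0.22), CCND1 (-0.13), IFI6 (0.11) and IRS1 (0.18). In the other stages the fold changes of SLC2A5 (-0.052) and CTH (0.030) did so. Without the last 84 cells the other sign was seen for HAL (0.24), CTH (0.22) and IFI6 (1.94) and, at levels under the minimum for a call, for PRODH (1.52), ARMC12 (3.44), FKBP5 (1.39) and TSPO (0.72). With both, it was seen for LIPG (-0.31), SLC2A5 (-0.010), APOA4 (-0.024), HILPDA (-0.022), FGF21 (-0.16), SLC13A5 (-0.042), ORM1 (0.32), PRODH (1.28), ARMC12 (0.29), FKBP5 (0.23), HAL (0.067), CTH (0.049), VNN1 (-0.043), ACSM1 (0.0024), FADS2 (-0.0099), SDS (0.11), GYS2 (-0.094), GLS2 (0.026), ASL (0.18), CPS1 (0.022), GNMT (0.25), SLC1A2 (0.89), HPX (0.086), HAMP (0.61), DDIT4 (0.22), NUPR1 (0.038), PSAT1 (0.13), CEBPD (-0.018), CTSL (-0.36), ATG7 (-0.11), CCND1 (-0.31), IFI6 (0.60), IRS1 (0.20) and IGFBP1 (0.051). For all of these the cause was not tested.

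Rankings by stretch, the stretch lengths, the count of 16 PLIN2-rich cells and the boundary of the last 84 cells were chosen after the data were seen. A stretch ranking also narrows the PLIN2 difference, and how far that lowers the ratios of other genes was not tested. Ranking within a plate or animal was not run, since none is given, nor was the test on stages with a PLIN2 read in at least 75% of cells, which 1 of the 8 reached. PLIN2 counts of 0 set the PLIN2-poor group in most other stages, and at that depth a 0 does not show that the gene was off.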
